A study of Mus musculus with 22 samples.

Results

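The genes examined were 9 receptor genes through which haematopoietic progenitors receive growth factor and cytokine signals, namely Kit, Flt3, Csf2rb, Csf2rb2, Il6ra, Il6st, Ifngr1, Ifnar1 and Tgfbr2. They were listed by name, out of 21911 protein-coding genes, with no threshold on acetylation but with earlier results of these data known. Each gene was described by the peaks of acetylated histone H3 lysine 27 (H3K27ac) that overlapped its gene body or lay within 50 kb of it, and for Kit to 160 kb upstream. H3K27ac was measured by chromatin immunoprecipitation sequencing (ChIP-seq) in KL cells, which are lineage-negative, cKit+, Sca1- myeloid progenitors of mouse bone marrow. All 3 libraries came from male C57BL/6 mice of the genotype scl-Cre-ERT +; Bcorfl/y, called BcorΔE9-10 after recombination. Tamoxifen had been given at 1 mg per day for 5 days when the mice were 3 to 6 months old, and cells were taken 20 weeks later. The Cre recombinase is driven by a stem cell enhancer of the Scl gene, so that exons 9 and 10 of the X-linked corepressor gene Bcor are removed in stem cells and the deletion is carried by their progeny. The study's methods name 3 BcorΔE9-10 mice as the source of the cells, and the 3 libraries are called replicates 1, 2 and 3 after their labels. Of the 22 samples, 19 were not analysed here, and as H3K27ac was examined in BcorΔE9-10 cells alone the genotypes were not compared.

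Cytokine receptors set which growth and differentiation signals a progenitor can answer, and H3K27ac marks the active promoters and enhancers of the genes that encode them. Kit and Flt3 are receptor tyrosine kinases for stem cell factor and Flt3 ligand. The β chains Csf2rb and Csf2rb2, the interleukin 6 receptor chain Il6ra and the shared signalling chain gp130 (Il6st) are type I cytokine receptors that signal through Jak kinases and Stat factors. Ifngr1 and Ifnar1 are chains of the type II receptors for interferon γ and type I interferon, and Tgfbr2 is the serine/threonine kinase that binds transforming growth factor β.

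The depth recovered from the peak lists, assuming 200 bp fragments and the peak caller's mouse genome size, was between 18.0 and 19.3 M reads. The lists held 23410, 25963 and 23758 peaks, and the smallest number of fragments at a listed summit was 8, 8 and 9. Acetylation below that was not listed. Peak height is given as fold enrichment, the authors' ratio of summit signal over local background in 1 library. Fold enrichment ran higher in replicate 3, with a median over all peaks of 5.53 against 4.92 in replicate 1 and 4.72 in replicate 2. The cells were checked against marker genes. All 10 progenitor genes, among them Gata2, Spi1 and Mpo, had a peak at their transcription start site (TSS) in the 3 libraries. Ly6a, which encodes the Sca1 antigen gated out of KL cells, had none, as did 50.1% of all protein-coding genes. Of the marker genes of other cells, a TSS peak in all 3 libraries was found at 0 of 8 for mature neutrophils, 0 of 8 for erythroid cells, 2 of 6 for megakaryocytes, 1 of 6 for mast cells and basophils, 1 of 6 for lymphoid cells, 1 of 6 for dendritic cells and macrophages, and 0 of 8 for cells outside the blood. The lymphoid gene was Cd5, whose product was also gated out, with 5.12, 4.06 and 5.85 in replicates 1, 2 and 3.

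The promoters of 8 of the 9 genes were matched in the RefSeq promoter table (GRCm38.p6). Of these, 7 were CpG-rich, defined here as an observed over expected CpG of at least 0.6 with a GC content of at least 50% over the 300 bases around the TSS, and the exception was Csf2rb2. By this definition, 33.5% of all promoters were CpG-rich. Genome-wide, 70.6% of 10995 CpG-rich promoters had an H3K27ac peak within 2.5 kb in all 3 libraries, against 12.9% of 21856 others. The window of Kit held 20 CpG, that of Flt3 18 and that of Tgfbr2 15. In the window of Csf2rb2 there were 3, with a ratio of 0.134, and Csf2rb2 was also the matched gene with no TSS peak in any library. The bases upstream of these 4 genes are shown on the strand of the gene, with CpG in capitals, because they set promoters with a listed peak beside the one without. They are chr5:75574737-75574915 (plus strand) for Kit, chr5:147400490-147400739 (minus strand) for Flt3, chr9:116175364-116175613 (minus strand) for Tgfbr2 and chr15:78305722-78305971 (minus strand) for Csf2rb2.
Kit: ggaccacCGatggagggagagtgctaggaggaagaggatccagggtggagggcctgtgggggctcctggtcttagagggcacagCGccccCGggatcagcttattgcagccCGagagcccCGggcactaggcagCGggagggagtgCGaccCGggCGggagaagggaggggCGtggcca
Flt3: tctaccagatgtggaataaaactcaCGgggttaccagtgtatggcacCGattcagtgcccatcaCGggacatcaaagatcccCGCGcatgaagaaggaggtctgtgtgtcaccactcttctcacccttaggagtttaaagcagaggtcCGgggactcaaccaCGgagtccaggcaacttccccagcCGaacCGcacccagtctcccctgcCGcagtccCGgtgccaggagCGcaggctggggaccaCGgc
Tgfbr2: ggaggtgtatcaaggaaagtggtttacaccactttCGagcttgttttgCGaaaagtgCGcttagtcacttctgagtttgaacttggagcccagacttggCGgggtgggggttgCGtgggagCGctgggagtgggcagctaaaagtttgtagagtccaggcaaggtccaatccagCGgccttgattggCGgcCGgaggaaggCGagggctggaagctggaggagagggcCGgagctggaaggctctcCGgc
Csf2rb2: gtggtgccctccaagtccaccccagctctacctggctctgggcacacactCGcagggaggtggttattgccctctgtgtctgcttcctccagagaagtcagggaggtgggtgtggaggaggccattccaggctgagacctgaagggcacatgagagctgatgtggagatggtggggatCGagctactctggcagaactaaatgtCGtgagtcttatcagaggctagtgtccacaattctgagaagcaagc

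Away from promoters, 3 distal regions that were found in all 3 libraries are shown, as 300 bases around the highest summit on the plus strand of GRCm38.p6. Capitals mark every match, on either strand, to 7 short motifs: AGATAA for factors of the GATA family, AGGAAG for ETS factors, TGTGGT for RUNX factors, TTGCNNAA for C/EBP, TGANTCA for AP-1, TTCNNNGAA for STAT factors and the interferon regulatory factor (IRF) motif. The region 3.3 kb into Kit is drawn from chr5:75578129-75578428, the region 17.7 kb into Kit from chr5:75592610-75592909 and the region in intron 19 of Flt3 from chr5:147341328-147341627. The first held 1 AP-1 match, and the other two 1 ETS match each.
Kit 3.3 kb: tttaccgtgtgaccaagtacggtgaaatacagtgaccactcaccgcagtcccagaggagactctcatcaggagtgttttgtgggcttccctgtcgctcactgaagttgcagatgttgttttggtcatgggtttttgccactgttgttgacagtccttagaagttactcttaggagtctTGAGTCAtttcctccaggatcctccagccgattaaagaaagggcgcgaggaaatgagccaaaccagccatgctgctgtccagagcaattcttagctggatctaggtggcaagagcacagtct
Kit 17.7 kb: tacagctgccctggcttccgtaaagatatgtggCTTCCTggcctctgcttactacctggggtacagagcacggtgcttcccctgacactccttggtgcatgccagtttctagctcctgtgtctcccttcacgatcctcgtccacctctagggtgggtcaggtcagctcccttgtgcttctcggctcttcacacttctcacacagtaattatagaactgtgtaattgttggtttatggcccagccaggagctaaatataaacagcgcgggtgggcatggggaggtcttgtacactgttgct
Flt3 intron 19: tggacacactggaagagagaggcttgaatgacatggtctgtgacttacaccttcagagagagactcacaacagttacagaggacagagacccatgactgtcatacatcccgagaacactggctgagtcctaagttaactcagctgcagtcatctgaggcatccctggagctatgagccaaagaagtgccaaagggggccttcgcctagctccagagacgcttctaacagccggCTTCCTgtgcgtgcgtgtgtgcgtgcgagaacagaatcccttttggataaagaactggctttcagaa

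To ask which receptor genes carried acetylation at their own start site, peaks within 2.5 kb of any annotated TSS of the gene were collected. Of the 9 genes, 7 had such a peak in all 3 libraries, where 43.9% of all protein-coding genes did. Csf2rb had one in replicates 2 and 3 only, where 47.3% and 47.1% of all genes had one, and none in replicate 1 (46.2%). Csf2rb2 had none in any library, as did 50.1% of all genes. Among the 7 genes the median of the mean fold enrichment was 9.77, and the median over all 9621 genes with a TSS peak in the 3 libraries was 10.2, with quartiles of 6.99 and 14.9. The receptor genes therefore lay in the middle of the range of marked promoters. Their strongest summits all lay inside the gene, between 136 and 1065 bp downstream of its annotated start, and the plot of TSS fold enrichment by library shows each value. The counts held at 7 under each alternative except the omission of replicate 1, where Csf2rb brought it to 8.

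**Figure D1:**
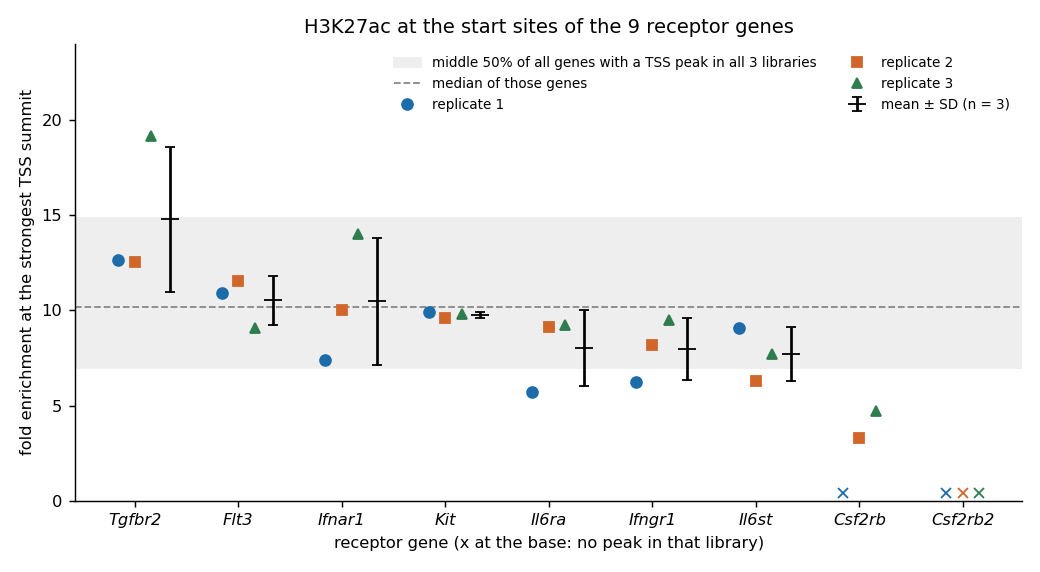
Fold enrichment of H3K27ac at the strongest TSS summit (y axis) of each of the 9 receptor genes (x axis) in the 3 libraries, with the mean and SD for the 7 genes with a peak in all of them. The grey band spans the quartiles (6.99 to 14.9) and the dashed line the median (10.2) of all genes with a TSS peak in all 3 libraries, and only Tgfbr2 in replicate 3 lies above the band.

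Of the receptor tyrosine kinases, Kit (ENSMUSG00000005672.12, chr5:75574916-75656722, plus strand), whose product is the cKit antigen used to sort these cells, had a TSS fold enrichment of 9.90, 9.59 and 9.83. The spread was narrow, with a mean of 9.77 ± 0.162 (SD, n = 3), which placed Kit at the 47.1st percentile of marked genes. The summits held 28, 28 and 31 fragments (exact Poisson 95% intervals 18.6 to 40.5, 18.6 to 40.5 and 21.1 to 44.0, which cover counting error only). The 3 counts thus lay well inside one another's intervals. Summed over all annotated TSSs of the gene, the acetylation of Kit stood higher among marked genes by breadth than by height. Its TSS peaks covered 2505, 2145 and 1767 bp, with a mean of 2139 ± 369 bp (SD, n = 3), at the 91.7th percentile of marked genes (median 1001 bp). Part of this breadth lay at short internal transcripts, where peaks were found 61.6 kb from the gene start in replicates 1 and 2, and at 62.0 and 65.7 kb in replicate 1. The percentile was not recomputed without these peaks. The TSS peaks of Tgfbr2 were also broad, with 1637, 1803 and 1653 bp, and their range overlapped that of Kit.

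Flt3 (ENSMUSG00000042817.15, chr5:147330741-147400489, minus strand), the receptor that supports early lymphoid and myeloid progenitors, reached 10.9, 11.6 and 9.09, a mean of 10.5 ± 1.28 (SD, n = 3). Its values overlapped those of Kit. The Flt3 peak was compact, covering 989, 680 and 594 bp. A TSS of the noncoding gene Gm26597 lies within 2.5 kb of the same summit, and its share of the signal was not tested.

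Tgfbr2 (ENSMUSG00000032440.13, chr9:116084293-116175360, minus strand) had the highest TSS fold enrichment of the 9 genes, with 12.6, 12.6 and 19.2 and a mean of 14.8 ± 3.80 (SD, n = 3). It stood at the 74.7th percentile of marked genes. Its lowest value exceeded the highest of Flt3, Kit, Il6ra, Ifngr1 and Il6st, so that these genes and Tgfbr2 did not overlap over the 3 libraries. Only its range and that of Ifnar1 met. The peak at exon 1 held 36, 37 and 58 fragments, and replicate 3 stood above the other pair.

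The type II receptor chains were lower or more variable. Ifnar1 (ENSMUSG00000022967.13, chr16:91485238-91507441, plus strand) gave 7.41, 10.0 and 14.0, a mean of 10.5 ± 3.32 (SD, n = 3). Ifngr1 (ENSMUSG00000020009.13, chr10:19591949-19610229, plus strand) gave 6.25, 8.17 and 9.50, a mean of 7.97 ± 1.63 (SD, n = 3). At both genes replicate 3 was highest. Of the 7 genes, 4 were highest in replicate 3, where 61.8% of all genes with a TSS peak in the 3 libraries were.

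The values of the interleukin 6 receptor chains overlapped in fold enrichment but not in fragments, where only their counting intervals did. Il6ra (ENSMUSG00000027947.11, chr3:89864059-89913196, minus strand), which binds the cytokine, had a fold enrichment of 5.72, 9.13 and 9.24, a mean of 8.03 ± 2.00 (SD, n = 3). Il6st (ENSMUSG00000021756.12, chr13:112464070-112510086, plus strand), which transmits the signal and is shared by the whole interleukin 6 family, had 9.10, 6.29 and 7.73, a mean of 7.71 ± 1.4 (SD, n = 3). Their ranges overlapped, Il6ra being higher in 2 of 3 libraries. As fragments per M reads Il6ra had 1.77, 2.17 and 2.39 and Il6st 1.5, 1.00 and 1.25, so that Il6ra was higher in each library without overlap. The Il6st promoter was the richest in CpG of the 8 matched, with 33 in its 300-base window.

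The order by mean fold enrichment was thus Tgfbr2, Flt3, Ifnar1, Kit, Il6ra, Ifngr1 and Il6st. Of the 21 pairs among these genes, 8 had ranges that did not overlap over the 3 libraries. Tgfbr2 was the higher gene in 5 of them and Kit in the other 3, against Il6ra, Ifngr1 and Il6st. Of the neighbours in the order, the ranges of Tgfbr2 and Flt3 and those of Kit and Il6ra did not meet, and the others overlapped. The means of Kit and Il6ra lay closer together than 1 SD of Il6ra.

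This order depends on the local background. At Ifngr1 the summits held 41, 48 and 57 fragments, more than at Kit, but over a local background 2.47 to 2.96 times that of the genome, and at Il6ra the background was 1.78 to 2.47 times as high. At Kit and Tgfbr2 it lay between 1.00 and 1.09 times. Counted as fragments per M reads in place of fold enrichment, Ifngr1 came first with 2.59 ± 0.346 (SD, n = 3), followed by Tgfbr2 with 2.32 ± 0.599, Ifnar1 with 2.19 ± 0.660, Il6ra with 2.11 ± 0.311, Flt3 with 1.83 ± 0.0982, Kit with 1.55 ± 0.0650 and Il6st with 1.25 ± 0.246. Kit dropped to the 34.1st percentile of marked genes on this scale and Ifngr1 rose to the 67.3rd. The cause of the higher background was not tested.

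The β chains were at or under the limit of detection. Csf2rb (ENSMUSG00000071713.6, chr15:78325752-78353847, plus strand), the signalling chain common to the receptors of GM-CSF, interleukin 3 and interleukin 5, had no TSS peak in replicate 1, 3.31 in replicate 2 and 4.70 in replicate 3, from 9 and 14 fragments. Csf2rb2 (ENSMUSG00000071714.7, chr15:78282507-78305721, minus strand), the closely related chain specific to interleukin 3, had no peak at its TSS or anywhere in its gene body. The genes are neighbouring duplicates, and a read that falls in both can be placed in neither with certainty. Of the 75-base windows of the gene bodies, 6.51% in Csf2rb and 7.73% in Csf2rb2 also occurred in the other gene, and 1.93% of those around each TSS. A level under 8 fragments would not have been listed, so the absence of a peak is not the absence of acetylation.

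The partner chains of these receptors came from lists of 56 other receptor genes. The α chains that pair with Csf2rb were well marked. Csf2ra, which binds GM-CSF, had a TSS fold enrichment of 13.5, 12.1 and 15.4 (13.7 ± 1.66, SD, n = 3), and Il3ra had 14.7, 14.6 and 18.2 (15.8 ± 2.07). In the libraries with a Csf2rb peak, Csf2ra was 3.66 and 3.28 times as high as Csf2rb. No TSS peak was found at Il5ra, the α chain of the interleukin 5 receptor, in any library.

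For type I interferon, Ifnar2 gave 19.7, 16.1 and 18.5 (18.1 ± 1.86, SD, n = 3), higher than Ifnar1 in each library by ratios of 2.66, 1.61 and 1.32, and the ranges of the pair did not overlap. The interferon γ chains were alike, with Ifngr2 at 7.46, 10.4 and 8.23 (8.71 ± 1.54) and a ratio to Ifngr1 of 1.11 ± 0.217 (SD, n = 3). Tgfbr2 exceeded Tgfbr1 (11.3 ± 1.35) in 3 of 3 libraries by a mean ratio of 1.29 ± 0.172 (SD, n = 3), but their ranges overlapped.

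Ifnar1 lies in a cluster of type II receptor genes that spans 192.8 kb of chromosome 16, with all 4 genes on the plus strand. From the proximal end, the mean TSS fold enrichment was 18.1 at Ifnar2, 12.2 at Il10rb, 10.5 at Ifnar1 and 8.71 at Ifngr2. Each of the 4 had a TSS peak in the 3 libraries. Ifnar2 lay above the other 3 genes without overlap, and Il10rb above Ifngr2. The range of Ifnar1 overlapped those of both Il10rb and Ifngr2.

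Across the 56 other receptor genes, 22 (39.3%) had a TSS peak in all 3 libraries, against 43.9% of all protein-coding genes, and 26 had none in any. Of the type I receptors 8 of 27 were marked in the 3 libraries, led by Crlf2 (28.1 ± 3.13, SD, n = 3), a chain of the thymic stromal lymphopoietin receptor, Il3ra, Csf2ra and Il15ra (10.4 ± 1.32). Il7r, which pairs with Crlf2, had no TSS peak, and neither did the erythropoietin receptor gene Epor. Of the type II receptors 3 of 8 were marked, namely the other 3 genes of the chromosome 16 cluster. Il20ra had a peak in 1 library.

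Among the other receptor tyrosine kinases 4 of 10 were marked. Igf1r (14.5 ± 2.38, SD, n = 3) and Insr (8.60 ± 2.31), which bind insulin-like growth factor and insulin, stood above Pdgfrb (4.86 ± 0.722) and Csf1r (4.58 ± 0.252), the macrophage growth factor receptor. The values of Kit and Flt3 lay above all of those at Csf1r and Pdgfrb. Among the receptors of the TGF-β family 7 of 11 were marked, led by Bmpr2 (16.2 ± 1.67), Tgfbr1, Acvr1b (6.64 ± 1.91) and Acvr1 (6.31 ± 0.181). A coding TSS of Upp2 lies within 2.5 kb of the Acvr1 peak.

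The genes for the ligands were mostly without a peak, as 2 of 12 were marked in all 3 libraries, against 43.9% of all protein-coding genes. The marked ligand genes were Tgfb1 (14.2 ± 2.76, SD, n = 3), a ligand of Tgfbr2, and Flt3l (6.05 ± 0.548), which shares its peak with the TSS of Rpl13a. Il11 had a peak in 1 library, and Kitl, Csf2, Il3, Il5, Il6, Ifng, Ifnb1, Tgfb2 and Tgfb3 had none in any. Of all protein-coding genes, 50.1% likewise had none in any library. The plot of receptor and ligand genes shows these lists side by side.

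**Figure D2:**
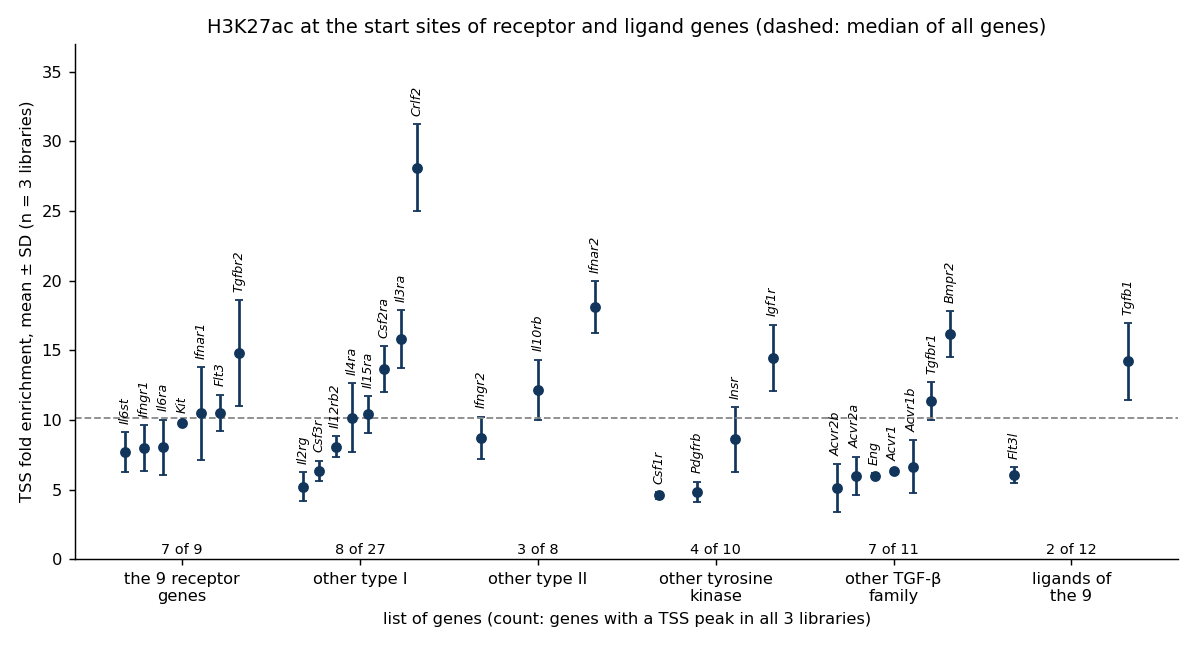
Mean TSS fold enrichment ± SD over 3 libraries (y axis) of every gene with a TSS peak in all 3 libraries, for the 9 receptor genes, 4 lists of other receptors and the ligands (x axis), with the count of marked genes in each list at its base. Crlf2 (28.1) lies highest and the 9 genes span 7.71 to 14.8.

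Distal peaks, over 2.5 kb from every annotated TSS, were next counted at the 9 loci to look for candidate enhancers. There were 33, 31 and 30 in the 3 libraries (31.3 ± 1.53, SD, n = 3), or 0.446%, 0.345% and 0.411% of all distal peaks. Merging those that overlapped gave 54 regions. Of these, 9 were found in all 3 libraries (16.7%, Wilson 95% interval 9.02% to 28.7%), as often as among all 14757 distal regions (16.7%). A further 14 were found in 2 libraries and 31 (57.4%) in 1, where the background was 64.5%. Summits lay inside the receptor gene itself in 30 regions, 29 of them in introns and 1 over an annotated exon of Flt3. They lay outside it in 24, and 8 of the latter lay inside another protein-coding gene.

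Distal acetylation was weak. The mean fold enrichment of the 54 regions ranged from 2.70 to 8.02 with a median of 3.93, close to that of all distal regions (3.97). Taken library by library, summits of regions found in 1 library held a median of 11 fragments (8 to 22), those of regions in 2 libraries 13.5 (9 to 34) and those of regions in all 3 libraries 14 (10 to 37). Most single-library regions were only a few fragments above the smallest number listed, as the plot of distal regions shows, and their absence elsewhere cannot be told apart from a level just under the threshold. Requiring a −log10 q of 5 or more left 17 regions, 3 of them in all 3 libraries, of which 2 lay at Ifnar1 and 1 at Flt3.

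**Figure D3:**
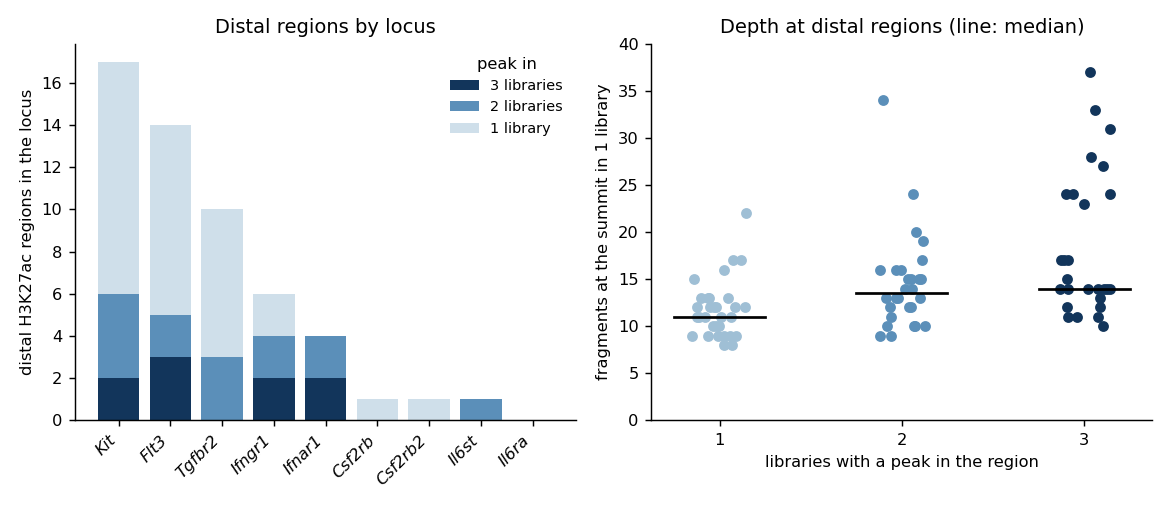
Left, number of distal H3K27ac regions (y axis) at each of the 9 loci (x axis), shaded by the number of libraries with a peak. Right, fragments at the summit in each library with a peak (y axis) for the 54 regions, by the number of libraries with a peak (x axis), with medians of 11, 13.5 and 14 as lines.

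Distal regions were unevenly spread over the genes. Kit had 17, Flt3 14, Tgfbr2 10, Ifngr1 6 and Ifnar1 4, whereas Csf2rb, Csf2rb2 and Il6st had 1 each and Il6ra none. Per 100 kb of locus, within 50 kb on each side, Kit had 9.35 and Flt3 8.25 regions, at the 98.4th and 97.7th percentile of genes with a TSS peak in all libraries, whose median was 0.724. Tgfbr2 had 5.23 and Ifngr1 5.07. A region found in all 3 libraries was present at 4 of the 9 loci, against 13.7% of all genes and 21.8% of genes with a TSS peak in all 3. Assignment was by overlap with the gene body or the flanks searched, even where the start of another gene was closer. Contact with a promoter was not measured.

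At Kit, 13 of the 17 regions lay in intron 1, between 3.3 and 29.8 kb from the gene start. They were low, as no Kit distal peak exceeded 16 fragments and a fold enrichment of 5.80. The only regions found in all 3 libraries were chr5:75577969-75578507, at 4.10, 4.30 and 4.88 (4.43 ± 0.407, SD, n = 3), and chr5:75591971-75593252, at 3.11, 4.96 and 4.79 (4.29 ± 1.02). A further 3 intron 1 regions were found in 2 libraries and 8 in 1. The highest single value was at chr5:75579343-75579803, 4.7 kb from the start, with 5.80 in replicate 1 and 4.23 in replicate 3 and no peak in replicate 2. The number of distal peaks per library was 11, 10 and 6, lowest in replicate 3 although that library was the deepest. Genome-wide, distal peaks numbered 7395, 8984 and 7295 in replicates 1, 2 and 3, so that replicate 3 had the fewest there too. Near the 3′ end, 3 regions lay between 96.3 and 120.1 kb from the start, past the end of the gene, and 1 of them was found in 2 libraries.

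Upstream of Kit, no distal peak was found in any library over the whole 160 kb. The closest upstream signal was a TSS peak of 3.58 in replicate 3, 0.2 kb from the start and made of 10 fragments. Of all genes with a TSS peak in the 3 libraries, 45.4% likewise had no distal region in the 160 kb upstream, and the median was 1. Apart from that peak, acetylation at Kit was therefore detected only downstream of its start, at a depth that lists summits from 8 fragments.

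At Flt3, the strongest distal region of the 9 loci lay near the far end of the gene. It covered chr5:147341212-147341931, 58.9 kb into the gene in intron 19 of 24 exons, with 10.8, 5.80 and 7.47 (8.02 ± 2.54, SD, n = 3) from 31, 28 and 37 fragments. Its height in replicate 1 was close to that of the Flt3 TSS in the same library (10.9). The next region, chr5:147339875-147341113 in intron 20, had 6.15, 3.06 and 8.13 (5.78 ± 2.56). In intron 1, chr5:147392908-147393616 had 2.60, 2.60 and 4.50 (3.23 ± 1.10). The remaining 11 regions were found in at most 2 libraries, and 4 of them lay inside the neighbouring gene Pan3, whose own TSS region, 30.2 kb upstream of Flt3, was the highest in the locus at 20.2, 24.9 and 31.8.

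**Figure D4:**
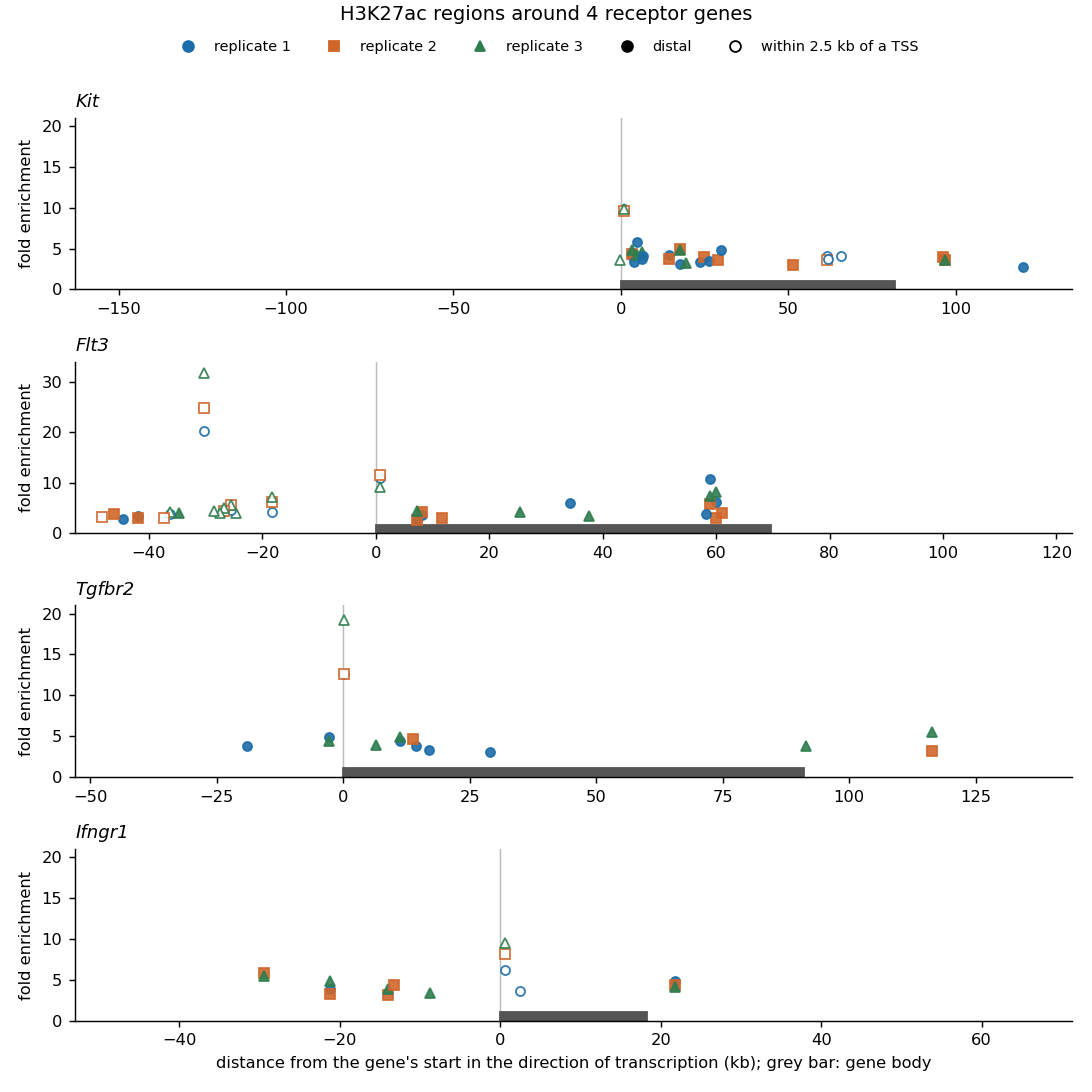
Fold enrichment (y axis) of each H3K27ac region by distance from the gene's start in the direction of transcription (x axis, kb) for Kit, Flt3, Tgfbr2 and Ifngr1, with 1 symbol per library, filled for distal regions and open within 2.5 kb of a TSS. Kit has no region over the 160 kb upstream apart from the start itself, Flt3 has a group near 60.0 kb into the gene, and the symbols of replicates 1 and 2 coincide at the start of Tgfbr2.

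Tgfbr2 had no distal region in all 3 libraries. Such a region was found within 50 kb at only 21.8% of genes with a TSS peak in all 3. Of its 10 regions, 3 were found in 2 libraries. The highest of these lay in intron 1 at chr9:116163973-116164342, 11.2 kb into the gene, with 4.44 in replicate 1 and 4.88 in replicate 3. A region 2.8 kb upstream of the start had 4.89 in replicate 1 and 4.37 in replicate 3. In all, 5 regions fell in intron 1. The 3 libraries had 6, 2 and 5 distal peaks here, fewest in replicate 2.

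The interferon receptor genes carried their distal regions outside the gene. At Ifnar1, chr16:91522370-91522647, 37.3 kb downstream of the start and between Ifnar1 and Ifngr2, had 6.06, 5.00 and 6.96 (6.01 ± 0.982, SD, n = 3). It lay closer to the start of Ifngr2 (chr16:91547072) than to that of Ifnar1, and it passed the stricter threshold in each library. A region next to it, 37.7 kb from the start, reached 7.0 and 4.92 in replicates 2 and 3 but was not listed in replicate 1. At Ifngr1, chr10:19613418-19613989, 21.8 kb downstream of the start and past the gene's end, had 4.87, 4.39 and 4.10 (4.45 ± 0.388), and chr10:19570445-19570957, 21.2 kb upstream, had 3.89, 3.33 and 4.92 (4.05 ± 0.804). The region downstream of Ifngr1 lay closer to the start of Il22ra2 (chr10:19621998) than to that of Ifngr1. Of the 6 regions at Ifngr1, 5 lay upstream. The highest, 29.5 kb upstream, reached 5.83 and 5.46 in replicates 2 and 3 and was not listed in replicate 1.

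The other loci were sparse. At Il6st the single distal region, chr13:112551792-112552149, lay 87.9 kb from the start over an exon of Il31ra, the gene of another receptor of the interleukin 6 family, with 4.98 in replicate 1 and 4.15 in replicate 3. Csf2rb had 1 region in 1 library inside Tst (2.94, 9 fragments), and Csf2rb2 had 1 in 1 library inside Ncf4 (3.77, 22 fragments). Around Csf2rb2 the highest TSS region of Ncf4, a subunit of the phagocyte oxidase, reached 9.22, 10.6 and 19.8, above any peak of either β chain gene. Other TSS regions of Ncf4 were lower, down to 3.41 in replicate 1, and did not all exceed the peaks of Csf2rb. Il6ra had TSS peaks and no distal peak.

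Within a library, the strongest distal peak assigned to a gene was set against its TSS peak. At Ifnar1 and Ifngr1 some of these distal peaks lay closer to the start of another receptor gene. The ratio was 0.795 ± 0.258 (SD, n = 3) at Flt3, 0.689 ± 0.104 at Ifngr1, 0.672 ± 0.162 at Ifnar1, 0.533 ± 0.0470 at Kit and 0.35 ± 0.0536 at Tgfbr2. It was under 1 in each library at these 5 genes, the closest being 0.988 at Flt3 in replicate 1. The values of Tgfbr2, from 0.289 to 0.387, lay below those of the other 4 genes in each library.

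The motifs were next counted in 300 bases around the highest summit of each distal region. ETS matches were the most frequent, in 26 of the 54 regions (48.1%), against 43.97% of all 14757 distal regions. GATA matches were found in 6 (11.1% against 12.52%), RUNX in 9 (16.7% against 23.6%), C/EBP in 5 (9.26% against 11.6%) and IRF in 2 (3.70% against 4.74%). AP-1 matches were found in 9 regions (16.7% against 9.18%). No region held a STAT match, where 9.21% of all distal regions did. In the 8 promoter windows, an ETS match was found in 5 (35.4% of all promoters), a STAT match in 2 (8.30%), GATA and C/EBP matches in 1 each (11.2% and 10.8%), and RUNX, AP-1 and IRF matches in none (16.8%, 7.81% and 3.44%). These are matches of letters, different motifs may overlap, and binding was not measured.

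Finally, peaks were stitched at the distance customary for super-enhancers, between the 5 and 20 kb tried as alternatives, and ranked to ask whether the receptor genes lay in super-enhancers (SEs), regions of dense acetylation found past the point of slope 1 of the ranked curve. Of the 9 genes, only Tgfbr2 had an SE assigned in 2 or more libraries, against 8.24% of all protein-coding genes. Its stitched region ranked 983, 1575 and 939, with 1383, 1083 and 1190 SEs in the 3 libraries. Kit ranked 797, 1148 and 2198 and was in an SE in replicate 1 only, where its stitched region of 29.8 kb joined 11 peaks from the TSS through intron 1. In replicate 2 Kit fell just outside the limit, and in replicate 3 the region shrank to 19.9 kb and 8 peaks. No other of the 9 genes was assigned an SE. In all, 1805 protein-coding genes were assigned an SE in 2 or more libraries. The study used Homer, with enhancers ranked by tag count, and reported a much shorter list of SEs. The calls here are therefore not those of the study.

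The SE calls depended on how they were made. Stitching within 5 kb gave Tgfbr2 an SE in 3 libraries and Kit in 2. Stitching within 20 kb left neither with a call and gave Flt3 one in 3 libraries. Without TSS peaks only a call at Kit in 1 library was left. Ranking by summed fold enrichment gave Kit an SE in 2 libraries and dropped Tgfbr2, and the stricter peak threshold removed all calls at the 9 genes.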

How the data were processed

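Single-end H3K27ac ChIP-seq reads had been aligned by the authors to GRCm38 with bowtie2 and PCR duplicates removed. No molecular identifiers were used, and intervals allow for counting error alone. The submitters' processing notes list MACS2 (2.1.1), cutadapt (1.7) and deepTools (2.5.3). Peaks were called in each library separately, and the control and settings were not given in the sources used here. The deposited lists give each summit a fold enrichment (a ratio within its library), the −log10 of its p-value and q-value, and a score, which was not used. No test over genes was run.

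Rows repeating an interval were counted as 1 peak, with the highest fold enrichment, on chromosomes 1 to 19, X and Y. Gene models were GENCODE M21. Fragments were solved from fold enrichment and p-value. Depth was recovered from the lowest local background, assuming 200 bp fragments and the mouse genome size built into MACS2. All rows solved to a relative tolerance of 0.0001 (100%), against 1.41% to 1.93% with shuffled p-values. Merging and solving were tested on simulated data.

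The 9 genes, the lists and the motifs were chosen with earlier results of these data known. Named were all 9 genes with, where there was one and except at Ifnar1, the distal region of highest mean among those in most libraries, the 4 highest genes of each other list and the partner chains. Further regions, Il7r, Epor and neighbours were named after their values were seen. A distal region and a receptor gene are not reported here by name. Python 3.11.15, numpy 2.4.6, pandas 2.3.3 and scipy 1.17.1 were used.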

Additional observations from a re-analysis of the deposited data

How the results depend on the processing

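Each result was recomputed under the alternatives, and of the 61 values so obtained for summary results 50 stayed within the limits set. The limits differed between kinds of result, so the tally is not a uniform check. The median height in fragments per M reads was counted as outside them. So were the median TSS fold enrichment without replicate 1 (9.45), which included Csf2rb, and that without replicate 3 (8.70). The mean number of distal peaks at the 9 loci (31.3) moved to 9.67 with a −log10 q of at least 5 and to 16.3 with gene bodies only. Leaving out a replicate gave 30.5 to 32.0 distal peaks, 7 to 8 genes with an own TSS peak, 22 to 24 other receptor genes, a median TSS fold enrichment of 8.70 to 9.87, a distal to TSS ratio of 0.599 to 0.745, 1 to 3 SE calls (1 without replicate 1, against 3 gene and library pairs in all) and 24.5% to 33.3% of distal regions in all remaining libraries (from 16.7%), where fewer libraries have to share a region. The median height of the 7 marked genes was 2.11 as fragments per M reads, another unit than fold enrichment (9.77). SE calls numbered 0 with a −log10 q of at least 5, 1 without TSS peaks and 5 with stitching within 5 kb. No paired analysis was possible because libraries of 1 group alone were analysed, and those of other marks that share its replicate numbers were not used. Precision is limited by depth, since distal summits rest on 8 to 37 fragments.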
